A study of Mus musculus with 9 samples.

Results

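The 55 genes described here build and regulate S phase, the part of the cell cycle in which DNA is copied. They were chosen by gene symbol, all 55 were found among the 21899 genes of the table, and all 55 passed the filter on low values. The libraries hold poly(A) RNA of cultured mouse brain tumor stem cells (BTSC), the self-renewing cells of a brain tumor, in 3 groups of 3. The control group is BTSC with no edit named in the labels. The other groups are BTSC with a Gpd1 knockout (KO) made with Cas9 and sgRNA1 or sgRNA2. The enzyme made from Gpd1 is the glycerol-3-phosphate dehydrogenase of the cytosol. Per the labels, KO cells were transfected with the lentiCRISPv2 vector, selected with puromycin and expanded from single-cell colonies, so a KO library may represent 1 clone. Whether control cells were transfected, selected or picked as colonies is not given in the sources used here. Whether libraries of a group came from separate cultures is not given either, so p-values measure only the spread between these libraries. In bulk RNA, fewer cells in S phase and less RNA of these genes per cell cannot be told apart.

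Copying of the genome starts at origins, which the origin recognition complex marks and on which Cdc6 and Cdt1 load the ring-shaped Mcm2-7 helicase. Cdk2 with cyclin E or A then activates the helicase together with Cdc45 and the GINS complex, and polymerases held by the Pcna clamp copy both strands. Many of these genes are transcribed at the entry to S phase under E2F factors, and their RNA is low in cells that have left the cycle, such as differentiated neurons and glia.

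The normalized read counts of the table summed to between 39781901 and 42975283 per library. Gpd1 RNA in the KO libraries was 12.8%, 5.21% and 82.6% of the control mean with sgRNA1 (replicates 1 to 3) and 41.8%, 41.8% and 26.9% with sgRNA2. A Cas9 edit can leave the transcript in place, so these levels do not check the edit itself. The labels report that the KO was checked by protein blot and DNA sequencing of the colonies. Of these libraries, 2 stood apart: sgRNA1 KO replicate 3, whose Gpd1 RNA was near the control level, and sgRNA2 KO replicate 3. In the latter the median gene of chromosome 11 (1233 genes) was at 138.7% of control, against 91.3% to 100% in the other KO libraries. All 10 neural and glioma stem cell markers were detected. In KO, 2 of them fell (Nes, Vim) and 2 rose (Sox2, Pax6), close to the shares of all genes tested (20.2% lower, 19.1% higher). They summed to 345003 to 387998 in the controls, to 237504 to 327196 with sgRNA1 and to 234458 to 308206 with sgRNA2. Most of this sum was Vim and Fabp7. Vim had 148497 to 172358 in the controls and 68819 to 101835 in KO. Fabp7 had 89658 to 108412 in the controls and 73051 to 140403 in KO. Prom1 was low, with 3 to 31 in any library. The median log2 fold change of the 10 markers in KO was 0.02, and 5 of the 10 were negative.

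RNA of the replication genes was lower in the Gpd1 KO libraries than in control. The median log2 fold change of the members was -1.65, while the median of all 15827 genes tested was -0.01. Against control, 41 of the 55 members fell and 0 rose at an adjusted p under 0.05 in limma's moderated test, where 20.2% of all genes tested fell and 19.1% rose. An unadjusted p under 0.05 was reached by 53 members and by 50.2% of all genes tested. Log2 fold changes ranged from -2.71 for Cdc6 to -0.36 for E2f3, and 50 members had a log2 fold change below -1, as did 10.5% of all genes tested. In 51 members every KO library was below every control library, which was so for 23.8% of all genes tested. The 4 members whose groups overlapped were Gins4, Rfc3, Rpa3 and Pold2. The 14 members that missed the threshold had adjusted p-values of 0.0505 to 0.107. The calls depended on the controls: 9, 5 or 6 members passed when control replicate 1, 2 or 3 was left out, although all 55 fold changes stayed negative. Of all genes tested, 24.7%, 17.5% and 19.0% passed in either direction in these fits, against 39.3% with all libraries. Without sgRNA2 KO replicate 2, 20 members passed (30.9% of all genes tested), and without both libraries that stood apart, 55 did (54.1%).

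The size of the fall differed widely among KO libraries, also between libraries of the same guide. Expressed as a percent of the control mean, the median member stood at 14.3%, 15.2% and 68.3% in sgRNA1 KO replicates 1 to 3 and at 61.1%, 23.8% and 48.8% in sgRNA2 KO. The 3 control libraries lay at 95.9%, 103.8% and 100.8%. The members together took 0.773% to 0.800% of all normalized counts in control. In the KO libraries they took 0.139%, 0.146% and 0.559% with sgRNA1 and 0.532%, 0.207% and 0.396% with sgRNA2. Thus sgRNA1 KO replicates 1 and 2 and sgRNA2 KO replicate 2 were the low libraries, and sgRNA1 KO replicate 3 and sgRNA2 KO replicate 1 lay nearer control. Levels under 50% of control were reached by 53, 54 and 3 members in the sgRNA1 KO libraries and by 4, 52 and 32 in the sgRNA2 KO libraries. The lowest KO value was in sgRNA1 KO replicate 1 for 32 members, in replicate 2 of that guide for 22 and in sgRNA2 KO replicate 2 for 1. The SD over KO libraries exceeded that over controls in all 55 members, with a median of 64.1% of the KO mean against 4.60% of the control mean. The median of all genes tested was 98.4% to 99.5% of control in each KO library. The deposited counts were already scaled per library, so a median near 100% is largely set by that scaling. A change in the total RNA per cell would not show in these values.

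**Figure D1:**
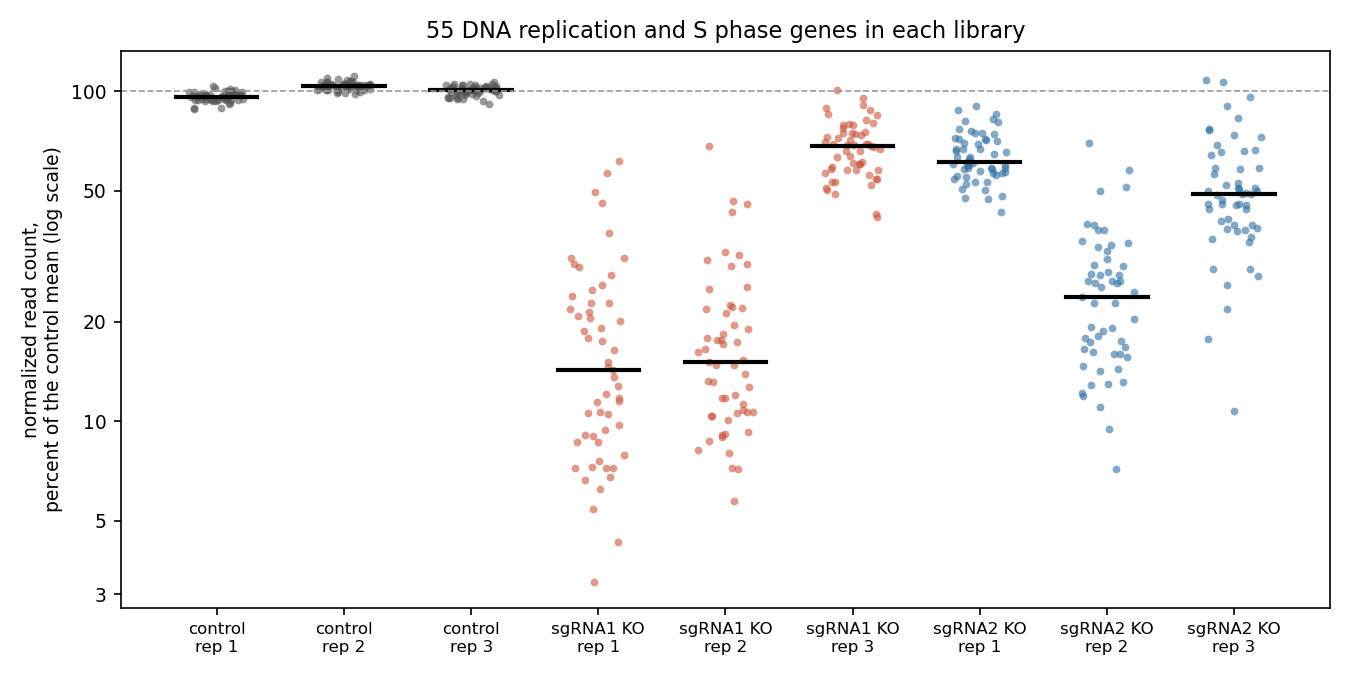
Percent of the control mean (log axis) for each of the 55 members, as points, in each of the 9 libraries (x axis), with the median member as a black bar and 100% as a dashed line. The medians of sgRNA1 KO replicates 1 and 2 sit at 14.3% and 15.2%, and that of sgRNA1 KO replicate 3 at 68.3%, while all controls lie between 95.9% and 103.8%.

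Every role group had members that fell, where 20.2% of all genes tested fell. The count that fell, of those listed, and the median log2 fold change were 4 of 6 (-1.65) for origin recognition and licensing and 8 of 12 (-1.93) for the helicase and its partners. They were 7 of 9 (-1.22) for the clamp, clamp loader and single-strand binding proteins and 7 of 10 (-1.62) for polymerases and strand joining. For nucleotide supply they were 3 of 4 (-1.81), for the cyclins and Cdk2 4 of 4 (-1.81), for E2F factors 3 of 5 (-2.03) and for chromatin copying 5 of 5 (-1.96). These groups are small and share libraries, and no difference between them was tested.

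**Figure D2:**
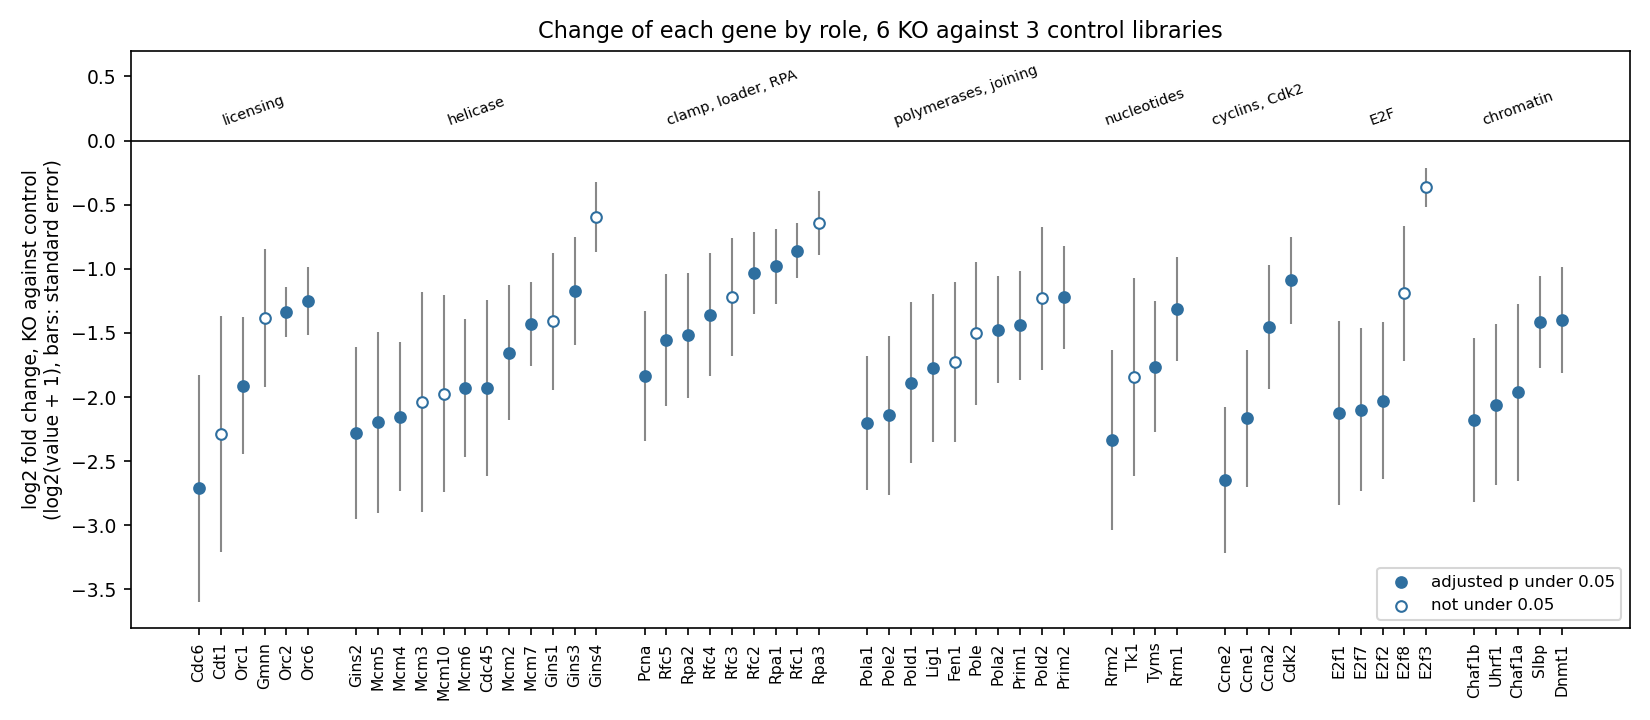
Log2 fold change of KO against control with its standard error for each member, ordered by role group, with filled points for members that passed limma's test and open points for those that did not. Each of the 55 lies below 0, from Cdc6 at -2.71 to E2f3 at -0.36.

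Among the licensing genes, Cdc6 had the largest fold change of all members. Cdc6, the ATPase that recruits the helicase to origins, had 2049, 2465 and 2399 normalized counts in control replicates 1 to 3, 75, 132 and 976 with sgRNA1 and 1083, 165 and 1047 with sgRNA2 (KO replicates 1 to 3 of each guide, in that order here and below). All KO values were below the lowest control, with a log2 fold change of -2.71 (SE 0.89, limma adjusted p = 0.0359). Its lowest library, at 3.25% of control, was the lowest level of any member, and in sgRNA2 KO replicate 3, where chromosome 11 genes ran high, this chromosome 11 gene was at 45.4%. Orc1, the origin recognition subunit that itself rises and falls through the cycle, was at 641, 754 and 765 in control, 77, 107 and 416 with sgRNA1 and 383, 125 and 283 with sgRNA2. The groups did not overlap, and Orc1 fell by 1.91 (SE 0.53, adjusted p = 0.0196). Orc6, the smallest subunit, had the smallest change of the licensing genes. Its counts were 3012, 3372 and 2933 in control, 933, 1013 and 1876 with sgRNA1 and 1809, 915 and 1634 with sgRNA2, again without overlap (-1.25, SE 0.27, adjusted p = 0.00661). Orc2 also fell (-1.34). Cdt1, the loader of Mcm2-7, and Gmnn (geminin), the inhibitor of Cdt1, had fold changes of -2.29 and -1.38 and missed the threshold (adjusted p = 0.0718 and 0.0647).

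Of the 12 genes of the helicase and its partners, 8 fell. Gins2, a subunit of the GINS complex, had 2904, 3005 and 2854 normalized counts in control, 221, 211 and 1516 with sgRNA1 and 1387, 415 and 1146 with sgRNA2. No KO library reached the controls, and Gins2 fell by 2.28 (SE 0.67, adjusted p = 0.0240). Mcm5, a ring subunit, was at 12006, 13313 and 13038 in control, 868, 1029 and 6762 with sgRNA1 and 6420, 1881 and 6361 with sgRNA2. Its highest KO value was well under its lowest control, and it fell by 2.20 (SE 0.71, adjusted p = 0.0335). Gins4, another GINS subunit, had the smallest change of this group, with 1764, 1751 and 1763 in control, 870, 802 and 1496 with sgRNA1 and 1444, 877 and 1876 with sgRNA2. Here sgRNA2 KO replicate 3 was above all controls, the groups overlapped and the fold change was -0.60 (SE 0.27, adjusted p = 0.107). Mcm2, Mcm4, Mcm6, Mcm7, Cdc45 and Gins3 also fell, with fold changes from -2.15 (Mcm4) to -1.18 (Gins3). Mcm3, Mcm10 and Gins1 had fold changes of -2.04, -1.98 and -1.41 and missed the threshold (adjusted p = 0.0828, 0.0646 and 0.0597). Mcm7 shares exon sequence with Mir25 and Mir93 on its strand and with Ap4m1 and Cops6 on the other, and the strand setting of the counting is not given in the sources used here.

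The 6 subunits of the Mcm2-7 ring are needed in equal number in the protein complex, but their RNAs stood at unequal percents of control in some KO libraries. As percent of each subunit's control mean, the highest over the lowest subunit was 1.02 to 1.03 in the control libraries. The ratio was 4.22, 3.16 and 1.46 in sgRNA1 KO replicates 1 to 3 and 1.24, 2.05 and 3.50 in sgRNA2 KO. In sgRNA1 KO replicate 1, Mcm3 was at 5.42% and Mcm7 at 22.9%. In sgRNA2 KO replicate 2 the same subunits marked the ends, Mcm3 at 13.0% and Mcm7 at 26.6%. In sgRNA2 KO replicate 3 the order was different, with Mcm4 lowest at 21.8% and Mcm3 highest at 76.4%. The libraries nearest to control, sgRNA1 KO replicate 3 and sgRNA2 KO replicate 1, had the narrowest KO ranges, with every subunit at 50.2% to 77.4%. These ratios describe single libraries and were not tested.

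**Figure D3:**
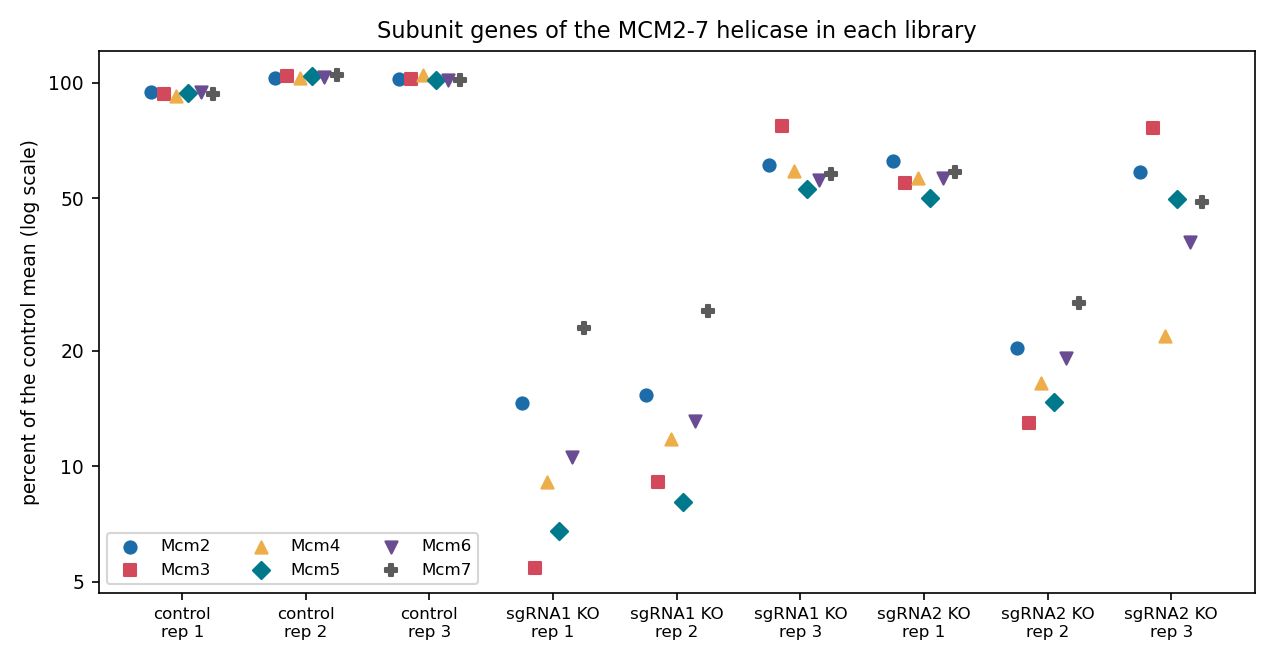
Percent of the control mean (log axis) for each of the 6 subunits Mcm2 to Mcm7 in each library (x axis), 1 symbol per subunit. The symbols nearly coincide in the controls and spread most in sgRNA1 KO replicate 1 (5.42% to 22.9%) and sgRNA2 KO replicate 3 (21.8% to 76.4%).

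The clamp that holds polymerases on DNA, its loader and the RPA subunits included 7 genes that fell. Pcna, the sliding clamp, had 9067, 9486 and 8651 normalized counts in control, 1049, 1498 and 5712 with sgRNA1 and 5540, 2071 and 2616 with sgRNA2. The groups did not overlap, and Pcna fell by 1.83 (SE 0.51, adjusted p = 0.0187). It has 2 named pseudogenes, Pcna-ps1 and Pcna-ps2, and how their reads were assigned is not given in the sources used here. Rfc5, a clamp loader subunit, was at 2750, 3012 and 2929 in control, 414, 504 and 1908 with sgRNA1 and 1913, 737 and 1622 with sgRNA2. It too showed no overlap and fell by 1.55 (SE 0.51, adjusted p = 0.0364). Rpa3, the smallest subunit of the single-strand binding protein RPA, had 1221, 1245 and 1118 in control, 673, 556 and 1201 with sgRNA1 and 1077, 688 and 602 with sgRNA2. Replicate 3 of sgRNA1 KO was inside the control range, and the fold change of -0.64 missed the threshold (SE 0.25, adjusted p = 0.0658). Rfc1, Rfc2, Rfc4, Rpa1 and Rpa2 fell, with fold changes from -1.52 (Rpa2) to -0.86 (Rfc1). Rfc3 had a fold change of -1.22 and did not pass (adjusted p = 0.0576).

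Of the polymerase group, Pola1 and Pole2 had the largest changes. Pola1, the catalytic subunit of the polymerase that starts each new strand, had 5065, 5324 and 4813 in control, 493, 609 and 2468 with sgRNA1 and 2689, 979 and 901 with sgRNA2. No KO library came near the controls, and it fell by 2.20 (SE 0.52, adjusted p = 0.0102). Pole2, a subunit of the leading-strand polymerase, was at 1780, 1865 and 1816 in control, 171, 163 and 1051 with sgRNA1 and 1084, 305 and 500 with sgRNA2 (-2.14, SE 0.62, adjusted p = 0.0227). Its KO libraries were all below the controls, and lowest in sgRNA1 KO replicates 1 and 2. Prim2, the large primase subunit, had the smallest fold change of this group. Its counts were 4078, 4351 and 4153 in control, 1086, 946 and 3802 with sgRNA1 and 2747, 1432 and 2176 with sgRNA2, with sgRNA1 KO replicate 3 close under the controls and no overlap (-1.22, SE 0.41, adjusted p = 0.0373). Pola2, Prim1, Pold1 and the ligase Lig1, which seals Okazaki fragments, fell, with fold changes from -1.89 (Pold1) to -1.44 (Prim1). Pold2, Pole and Fen1 had fold changes of -1.23, -1.50 and -1.73 and missed the threshold (adjusted p = 0.104, 0.0562 and 0.0505). Pold2 lies on chromosome 11 and was at 108.0% of control in sgRNA2 KO replicate 3, the library in which that chromosome's genes were high. Whether that chromosome's level set its value was not tested.

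Of the 4 genes that supply DNA precursors, 3 fell. Rrm2, the subunit of ribonucleotide reductase made mainly in S phase, had 11417, 13070 and 13109 normalized counts in control, 780, 1024 and 6775 with sgRNA1 and 6049, 1496 and 4747 with sgRNA2. The groups were apart, and Rrm2 fell by 2.33 (SE 0.70, adjusted p = 0.0262). Tyms, which makes thymidylate, was at 3755, 4109 and 3718 in control, 493, 536 and 2242 with sgRNA1 and 2212, 919 and 1762 with sgRNA2 (-1.77, SE 0.51, adjusted p = 0.0226). The groups did not overlap, and the gene has a named pseudogene, Tyms-ps. Rrm1, the large reductase subunit and a more stable protein than Rrm2, had 21929, 22559 and 22047 in control, 5331, 4864 and 17645 with sgRNA1 and 16576, 7775 and 8528 with sgRNA2. All KO values were lower, and the change was the smallest of this group (-1.31, SE 0.40, adjusted p = 0.0287). Tk1, the salvage thymidine kinase, had a fold change of -1.85 and missed the threshold (adjusted p = 0.0813).

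All 3 cyclins that drive S phase and their kinase fell. Ccne2 (cyclin E2) had 2627, 3012 and 2626 in control, 201, 287 and 1145 with sgRNA1 and 1185, 304 and 297 with sgRNA2. No KO library exceeded 43.0% of control, and Ccne2 fell by 2.65 (SE 0.57, adjusted p = 0.00705). Ccne1 (cyclin E1) was at 1971, 2186 and 2070 in control, 252, 215 and 1039 with sgRNA1 and 1046, 274 and 600 with sgRNA2, well apart (-2.16, SE 0.53, adjusted p = 0.0121). Their partner kinase Cdk2 had the smallest fold change of the group, with 4407, 4729 and 4696 in control, 1275, 1362 and 3454 with sgRNA1 and 3207, 1748 and 3068 with sgRNA2 (-1.09, SE 0.34, adjusted p = 0.0301). Here too the groups did not overlap. Ccna2 (cyclin A2) fell by 1.45 (adjusted p = 0.0385).

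E2F factors include activators (E2f1, E2f2, E2f3) and the atypical repressors E2f7 and E2f8, which themselves are E2F targets. E2f1 had 1671, 1863 and 1787 normalized counts in control, 128, 163 and 1000 with sgRNA1 and 1028, 229 and 903 with sgRNA2. The KO libraries were all below control, and E2f1 fell by 2.12 (SE 0.72, adjusted p = 0.0402). E2f7 was at 1643, 1664 and 1709 in control, 132, 179 and 1003 with sgRNA1 and 925, 262 and 603 with sgRNA2, also apart (-2.10, SE 0.64, adjusted p = 0.0270). E2f3 differed from these, with 2945, 3159 and 3030 in control, 1872, 2081 and 2897 with sgRNA1 and 2674, 2118 and 2743 with sgRNA2. It had the smallest change of all members: every KO library was under the controls, the highest only narrowly, and -0.36 did not pass (SE 0.15, adjusted p = 0.0829). E2f2 fell (-2.03), while E2f8 had -1.19 and did not pass (adjusted p = 0.0956).

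Chromatin is copied with the DNA, and all 5 genes for this fell. Chaf1b, a subunit of the CAF-1 histone chaperone, had 3026, 3173 and 3276 in control, 210, 372 and 1610 with sgRNA1 and 1762, 454 and 1128 with sgRNA2. These groups were apart (-2.18, SE 0.64, adjusted p = 0.0238). Uhrf1, which directs methylation to newly copied DNA, was at 7919, 8741 and 8848 in control, 737, 923 and 5871 with sgRNA1 and 5097, 1594 and 2194 with sgRNA2 (-2.06, SE 0.63, adjusted p = 0.0277). No KO library reached the controls. Dnmt1, the maintenance methyltransferase, had the smallest fold change here, with 20268, 21470 and 21754 in control, 4269, 4677 and 14527 with sgRNA1 and 15259, 6288 and 9544 with sgRNA2. Its groups did not overlap either (-1.40, SE 0.41, adjusted p = 0.0238). Chaf1a fell (-1.96), and so did Slbp (-1.41), which binds histone mRNA.

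In build mm10 with GENCODE M21, the members with the largest fold changes that passed, Cdc6 and Ccne2, are at chr11:98907801-98923940 (plus strand) and chr4:11191351-11204779 (plus strand), and E2f3, with the smallest, is at chr13:29906575-29986063 (minus strand). Levels among members can be compared per length of exon sequence. In control, normalized counts per kb were highest for Mcm3 (5843), Mcm6 (5062) and Rrm2 (4523) and lowest for Fen1 (142), E2f7 (186) and Orc1 (207). Fen1 overlaps Gm10143 and Tmem258 on the opposite strand, and 22 members share exon sequence with another gene. How reads in such shared stretches were assigned is not given in the sources used here.

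Separately by guide, both comparisons with control share the 3 control libraries. With sgRNA1, 47 members fell at an adjusted p under 0.05 (background 18.9% lower) with a median of -2.04, and in 54 the groups did not overlap (background 32%). With sgRNA2, 6 of the 55 fell, a share close to the background of 10.7%, and the median of the members was -1.25. An unadjusted p under 0.05 in limma's test was reached by 25 (background 39.2%), and in 52 the groups did not overlap (background 28.3%). The 6 were Orc2, Orc6, Mcm7, Rfc1, Pola1 and Ccne2, and all 6 were also among the 47. Both counts changed when a single library was left out, and so did the share of all genes tested that passed in either direction. The sgRNA1 count was 4, 1 and 1 without control replicate 1, 2 or 3 (17.8%, 8.01% and 9.74% of all genes tested). It was 1 without sgRNA1 KO replicate 1 or 2 (12.3% and 14.8%) and 55 without replicate 3 (49.9%). The sgRNA2 count was 1, 0 and 1 without control replicate 1, 2 or 3 (8.34%, 4.06% and 4.35%). It was 9, 1 and 1 without sgRNA2 KO replicate 1, 2 or 3 (23.9%, 9.04% and 18.7%). It was 28 with variance weights per group (29.8%) and 34 when only the 6 libraries compared were fitted (30.7%). Without sgRNA1 KO replicate 3 and sgRNA2 KO replicate 3 it was 49 (41.1%).

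With all libraries, members did not pass the test of a difference between the guides. Of them, 0 differed between sgRNA2 KO and sgRNA1 KO in limma's test at an adjusted p under 0.05 (background 0%), and 0 had an unadjusted p under 0.05 (background 2.99%). The median log2 difference was 0.69 higher with sgRNA2, from -0.00 for Rpa3 to 1.55 for Cdt1, with standard errors of 0.18 to 0.99 and adjusted p-values of 0.778 to 0.998. No member passed after adjustment in any alternative, but the count at an unadjusted p under 0.05 depended on single libraries. Without sgRNA1 KO replicate 3, 51 members had an unadjusted p under 0.05 (24.2% of all genes tested), still with 0 members passing after adjustment (lowest adjusted p = 0.0527). Without both libraries that stood apart, 46 did (24.4%; lowest adjusted p = 0.0837), and without sgRNA2 KO replicate 2, 11 did (14.5%; lowest adjusted p = 0.341).

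Within sgRNA2 KO, replicate 3 lay between replicates 1 and 2 for 43 members, above both for Cdt1, Mcm3, Mcm10, Gins4, Rfc3, Rfc4, Pold2 and E2f3, and below both for Rfc1, Rpa3, Pola1 and Ccne2. Cdt1 was at 54.2%, 9.47% and 83.1% of control in sgRNA2 KO replicates 1 to 3, and Rfc3 at 56.7%, 28.0% and 95.6%. The opposite order was seen for Ccne2, at 43.0% in replicate 1 and 10.8% in replicate 3, and for Pola1, at 53.1%, 19.3% and 17.8%. The level in replicate 3 over that in replicate 1 ran from 0.251 (Ccne2) to 1.69 (Rfc3). For comparison, sgRNA2 KO replicate 1 over sgRNA1 KO replicate 3 ran from 0.708 to 1.11. Of the members above both, only Pold2 is on chromosome 11, and without the 4 chromosome 11 members the median of this library was 48.5% (51 members).

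**Figure D4:**
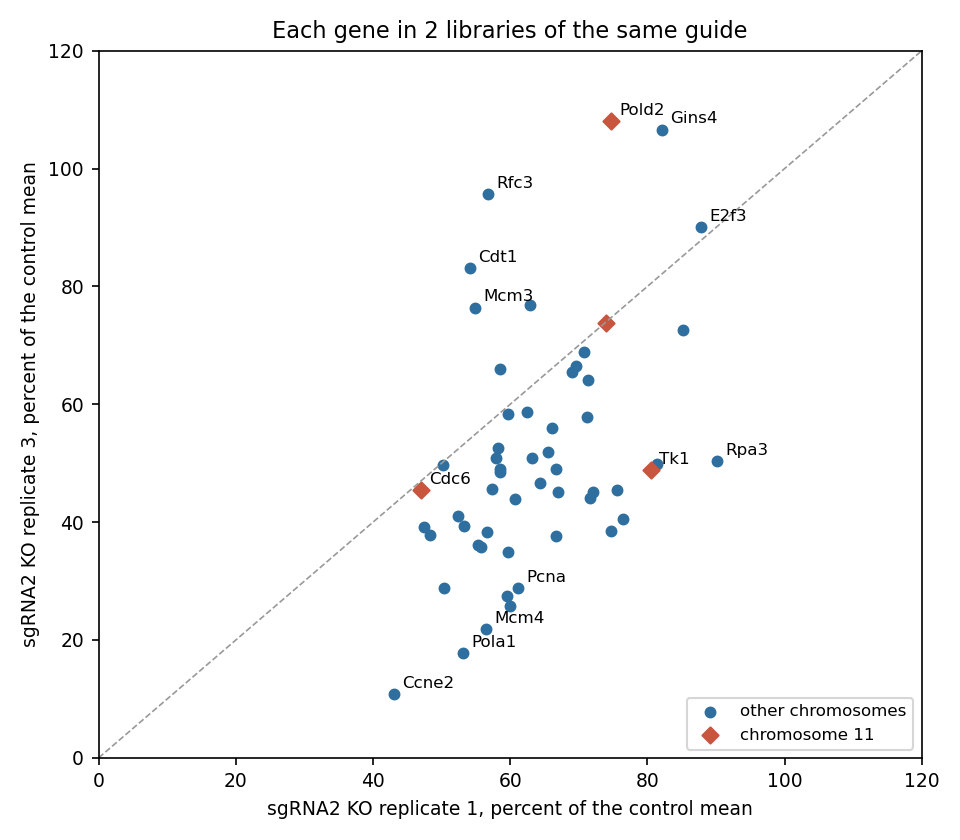
Percent of the control mean for each of the 55 members (points) in sgRNA2 KO replicate 3 (y axis) against replicate 1 of the same guide (x axis), with equality as a dashed line and the 4 members on chromosome 11 as diamonds. Most members lie under the line, Rfc3 at 95.6% and Cdt1 at 83.1% in replicate 3 lie above it, and Ccne2 is lowest at 10.8%.

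Ratios of partners were examined in 3 pairs, on the log2 scale, by an exact two-sided permutation test over the 84 ways to assign 6 KO and 3 control labels, with p-values adjusted over the 3. Rrm2 to Rrm1 lay between -0.94 and -0.75 in control. It was -2.77, -2.25 and -1.38 with sgRNA1 and -1.45, -2.38 and -0.85 with sgRNA2, so sgRNA2 KO replicate 3 was inside the control range. The mean was 1.02 lower in KO (exact p = 0.0476, adjusted 0.107). Ccne2 to Ccne1 was 0.34 to 0.46 in control, -0.32, 0.42 and 0.14 with sgRNA1 and 0.18, 0.15 and -1.01 with sgRNA2. Replicate 2 of sgRNA1 KO was inside the control range, and sgRNA2 KO replicate 3 was the lowest. The mean of this ratio was 0.41 in control and -0.08 in KO (exact p = 0.0714, adjusted 0.107). Cdt1 to Gmnn was 0.07 to 0.43 in control and -1.82 to -0.29 in 5 KO libraries, but 1.03 in sgRNA2 KO replicate 3 (exact p = 0.190, adjusted 0.190). None of the 3 passed.

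Other genes of DNA replication and its repair, a list of 44, showed the same direction on the whole. Of these 28 fell and 1 rose, with a median of -1.17, where 20.2% of all genes tested fell and 19.1% rose. The deepest falls were Hells, a chromatin remodeler (-2.70, SE 0.60, adjusted p = 0.00818), Exo1, an exonuclease (-2.21), and Asf1b, a histone chaperone (-2.18). Hells had 6090, 7307 and 6775 normalized counts in control, 426, 479 and 2605 with sgRNA1 and 2590, 642 and 1341 with sgRNA2, with the same low libraries as the members. Pold4, the small subunit of polymerase delta, went the other way, with 529, 522 and 428 in control, 730, 685 and 720 with sgRNA1 and 547, 664 and 788 with sgRNA2. All its KO values were above all controls (0.48, SE 0.15, adjusted p = 0.0269). Of 25 mitosis genes, 13 fell and 0 rose, with a median of -1.32, against the same shares of all genes tested. The median percent of control of the mitosis genes in the KO libraries was 24.3%, 15.6% and 74.3% with sgRNA1 and 72.6%, 37.0% and 56.9% with sgRNA2, the same order of high and low libraries as in the members except between sgRNA1 KO replicates 1 and 2.

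Markers of other brain cell types also differed between the groups, some in each direction, against 19.1% of all genes tested that rose and 20.2% that fell. The 7 astrocyte markers summed to 67632 to 72792 in the controls, to 96142 to 210370 with sgRNA1 and to 86326 to 184454 with sgRNA2, and 3 of the 7 rose (Glul, Slc1a2, S100b). Gfap and Aldh1l1 went in no common direction. Gfap had 4827, 3348 and 3480 in control, 16039, 23509 and 373 with sgRNA1 and 999, 916 and 2118 with sgRNA2. Aldh1l1 had 9644, 8383 and 8568 in control, 35433, 2191 and 3027 with sgRNA1 and 7339, 16696 and 29497 with sgRNA2. The 6 neuron markers summed to 43044 to 44350 in the controls, to 59610 to 126039 with sgRNA1 and to 48155 to 95468 with sgRNA2, and 2 of 5 tested rose (Map2, Syp). Nearly all of this sum was 1 gene, Map2, with 42431 to 43613 in the controls and 46736 to 123669 in KO. Tubb3, another neuron marker, had 344, 212 and 262 in control, 1369, 1851 and 119 with sgRNA1 and 192, 301 and 170 with sgRNA2, in no common direction. The 6 oligodendrocyte markers summed to 4317 to 5772 in the controls, to 9980 to 26346 with sgRNA1 and to 9573 to 20039 with sgRNA2, with 1 of 3 tested higher (Cnp) and 1 lower (Cldn11). Most of it was Cnp, with 4074 to 5341 in the controls and 9155 to 20149 in KO. Of 4 ependymal markers tested, 3 fell (Foxj1, Rsph1, Ccdc153), with sums of 4286 to 4674 in the controls, 1639 to 3031 with sgRNA1 and 1855 to 2976 with sgRNA2. The oligodendrocyte markers Mog and Mag had at most 4 normalized counts in any library. The part of these changes in the levels of the replication genes was not tested. Microglia, endothelial and pericyte or fibroblast markers summed to no more than 64, 207 and 113 in any library. Ptprc, the pan-leukocyte marker, was at 2, 1 and 1 in control, 0 in all sgRNA1 KO libraries and 2, 0 and 4 with sgRNA2.

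Promoters of S phase genes are known for E2F sites, so RefSeq promoter windows of build GRCm38.p6, from 250 bases before to 50 after the start, were searched. The words were TTTCCCGC, TTTGGCGC, TTTGCCGC and TTTCGCGC on both strands, and words can overlap one another. A window was matched for 45 of the 55 members. A gene could have more than 1 window and was counted if any of them held a word. At least 1 word was in 19 of the 45 (42.2%), in 11 of 35 other replication genes (31.4%), in 1 of 20 mitosis genes (5%), and in 4.55% of the tested genes with a window (495 of 10884). The CCAAT box, searched as CCAAT on both strands, was in 31 of the 45 (68.9%), 37.1% of the other replication genes, 85% of the mitosis genes and 42.7% of the tested genes. A word was found in 5 of 8 helicase windows and 0 of 4 nucleotide supply windows. The 19 members with an E2F word had a median log2 fold change of -1.93 (-2.71 to -0.36), and the 26 without one had -1.54 (-2.33 to -0.64), and the ranges overlapped widely.

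The sites below are from named members with a word, 30 bases each on the gene's strand, to show the word in its setting from the largest fold change (Cdc6) to the smallest (E2f3). Capitals mark the matched word, and in Mcm5 a pair of overlapping words.
Cdc6 site: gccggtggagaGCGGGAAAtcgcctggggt
Orc1 site: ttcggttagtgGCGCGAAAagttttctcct
Mcm5 site: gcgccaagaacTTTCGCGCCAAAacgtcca
Pola1 site: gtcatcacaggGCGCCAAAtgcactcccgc
Pole2 site: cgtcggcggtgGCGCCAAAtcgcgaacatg
Cdk2 site: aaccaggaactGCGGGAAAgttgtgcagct
E2f7 site: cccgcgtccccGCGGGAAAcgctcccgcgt
E2f3 site: ttgaaaagccgGCGGGAAAtctgagtttcg
Uhrf1 site: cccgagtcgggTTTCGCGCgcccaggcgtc
Dnmt1 site: ggtttccgcgcGCGCGAAAaagccggggtc

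Counted from the RefSeq start, which can differ from that of GENCODE, with negative numbers before it, the first base of the word is at -138 in Cdc6, -27 in Orc1, -153 in Mcm5 and -138 in Pola1. It is at -140 in Cdk2, -198 in E2f7, -11 in E2f3, -185 in Uhrf1, -219 in Dnmt1 and 10 in Pole2. In GRCm38.p6 coordinates the Cdc6 site is chr11:98908002-98908031 (plus strand), the Orc1 site chr4:108579416-108579445 (plus), the Pole2 site chr12:69228162-69228191 (minus) and the Cdk2 site chr10:128705173-128705202 (minus). The Uhrf1 site is chr17:56304117-56304146 (plus) and the Dnmt1 site chr9:20952824-20952853 (minus). Both are at a RefSeq start inside the GENCODE gene. Uhrf1 and Dnmt1 each also have a window nearer the GENCODE start, in which no E2F word was found. Cdc6, Cdk2, E2f7 and E2f3 carry the same word, GCGGGAAA.

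Longer stretches of 200 bases, all free of annotated exons, show 3 promoters of members that fell (Mcm5, Pola1, E2f7) and that of E2f3, which had the smallest change. Capitals again mark the words. They are Mcm5 chr8:75109309-75109508 (plus), Pola1 chrX:93632156-93632355 (minus), E2f7 chr10:110745239-110745438 (plus) and E2f3 chr13:29986064-29986263 (minus).
Mcm5 promoter: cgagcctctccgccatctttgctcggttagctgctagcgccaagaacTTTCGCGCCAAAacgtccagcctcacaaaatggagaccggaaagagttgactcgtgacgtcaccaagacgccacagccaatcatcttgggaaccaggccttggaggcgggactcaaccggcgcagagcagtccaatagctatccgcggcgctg
Pola1 promoter: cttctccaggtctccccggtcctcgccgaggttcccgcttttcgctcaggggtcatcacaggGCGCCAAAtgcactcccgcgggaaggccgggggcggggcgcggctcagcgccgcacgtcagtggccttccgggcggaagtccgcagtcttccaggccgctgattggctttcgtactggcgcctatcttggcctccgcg
E2f7 promoter: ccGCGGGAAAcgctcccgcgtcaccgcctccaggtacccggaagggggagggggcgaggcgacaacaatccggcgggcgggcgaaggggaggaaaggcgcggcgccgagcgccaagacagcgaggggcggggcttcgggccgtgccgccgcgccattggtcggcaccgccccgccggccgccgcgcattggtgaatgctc
E2f3 promoter: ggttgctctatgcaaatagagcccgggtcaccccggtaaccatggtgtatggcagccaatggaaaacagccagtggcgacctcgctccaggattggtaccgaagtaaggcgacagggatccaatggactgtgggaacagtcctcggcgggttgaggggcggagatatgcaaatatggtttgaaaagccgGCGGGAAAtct

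**Figure D5:**
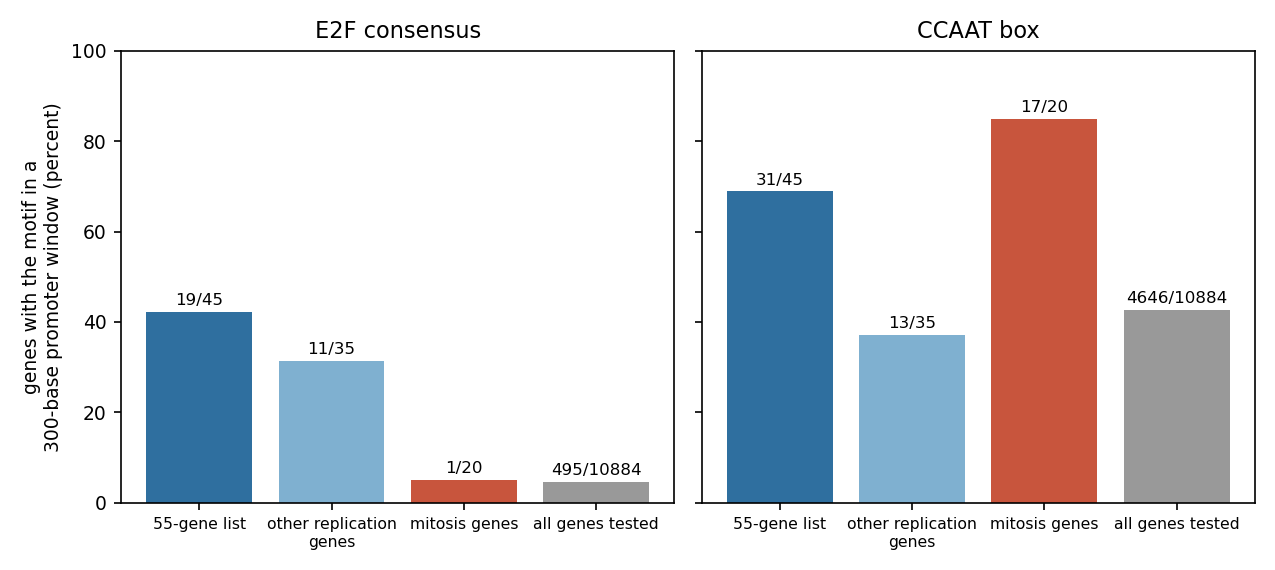
Percent of genes with an E2F word (left) or a CCAAT box (right) in their promoter window, for the members, other replication genes, mitosis genes and all tested genes. E2F words were in 42.2% of members and 5% of mitosis genes, and CCAAT boxes in 68.9% and 85%.

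A word match describes these letters in this window. Binding of E2F factors was not measured, and whether it set the levels was not tested.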

How the data were processed

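Poly(A) RNA libraries of mouse BTSC fell, by their labels, into 3 groups of 3: control and the KO with either guide. The authors deposited 1 table of normalized read counts, here treated as a score: read counts multiplied by 1 factor per library and rounded, which was inferred from the values. The tools named in the submitters' processing notes are STAR 2.4.1d, featureCounts and DESeq2, and the build is mm10; the annotation release is not given in the sources used here. Raw counts were not used here, so no count test was run.

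Values were transformed as log2(value + 1), which understates the change of low genes. A gene was tested if its mean over all 9 libraries was 10 or more (15827 genes). The two-sided test was limma 3.58.1 in R 4.3.3, using its trend of variance on mean, at a Benjamini-Hochberg adjusted p under 0.05 over all genes tested. KO against control used 2 groups; the guide comparisons used 1 fit with 3 groups. The totals of 39781901 to 42975283 are sums of scaled values and do not give read depth. Counting error of single members was not measured. It weighs more on members with low values, such as Fen1 at 44 in sgRNA1 KO replicate 2. No 2 libraries of a group agreed within sampling noise.

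The members, role groups and lists of other genes were chosen with earlier results of these data known. Per role group, the named members are the 2 largest changes that passed and the smallest change; other members named in the text were chosen after their values were seen. Of the other replication genes, the 3 largest falls and rises that passed are named. Of 21899 IDs, 99.7% matched GENCODE M21, which gave positions and exon overlaps. The limma steps were tested on simulated data drawn with the same spread per gene in every group. The unequal spread of KO and control libraries was therefore not part of that test. Promoters were RefSeq windows. Alternatives were other scalings, pseudocounts, filters, variance weights, fits of only the libraries compared, a replicate block and leaving out each library in turn; leaving out both libraries that stood apart was chosen after seeing the data. Python 3.11.15 with numpy 2.4.6, pandas 2.3.3, scipy 1.17.1 and matplotlib 3.10.9 was used.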

Additional observations from a re-analysis of the deposited data

How the results depend on the processing

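All 55 members kept a negative fold change against control, for KO and for each guide, under every alternative run, and no result reversed. What changed was how many passed, and the share of all genes tested that passed in either direction (percents below) changed too. For KO against control (41 members lower), leaving out 1 library gave 5 to 51. Of all genes tested, 17.5% to 48.0% passed over these fits. The fit with 51 members, without sgRNA1 KO replicate 3, had 42.0%, and the 48.0% was without sgRNA2 KO replicate 3. Leaving out both libraries that stood apart gave 55 (54.1%), as did variance weights per group (55.9%), while quantile normalization gave 37 (38.0%). For the 24 members named by rule, over the comparisons with control and their alternatives, 937 values stayed on the same side of the threshold, 194 no longer passed and 69 newly passed. For sgRNA1 (47 lower), leaving out 1 library gave 1 to 55 (8.01% to 49.9%), and leaving out both gave 55 (61.2%). For sgRNA2 (6 lower), leaving out 1 library gave 0 to 9 (4.06% to 23.9%). Variance weights per group gave 28 (29.8%), only the 6 libraries compared 34 (30.7%), and leaving out both libraries that stood apart 49 (41.1%).

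The replicate numbers did not pair the libraries: same-numbered libraries correlated between -0.345 and 0.333 in their deviations from the group means. With the number as a replicate block, 45 members passed for KO, 53 for sgRNA1 and 3 for sgRNA2. Of all genes tested, 36.6%, 33.1% and 16.6% passed in these fits. The cause of these changes was not tested. Each leave-out also had fewer libraries.

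The limits are few libraries, KO libraries that vary far more than controls, and scaled counts rather than raw ones, so that the calls, more than the directions, depend on the choice of libraries.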
